A study of Mus musculus with 6 samples.

Results

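The 10 genes here encode cleavage and polyadenylation factors, which help cut a transcript at its 3′ end and form and cover its poly(A) tail. They were taken by symbol (Cpsf1, Cpsf2, Cpsf3, Cpsf4, Cpsf6, Cstf1, Cstf2, Cstf3, Nudt21 and Pabpn1) from a table of 52249 genes, all 10 were found, and all 10 passed the filter on low counts that left 10687 genes for testing. The data are 3′ mRNA sequencing counts of mouse intestinal organoids, epithelial cultures grown from the gut. Both groups carry the Apc-knockout genotype, the loss of a brake on WNT signalling. The 3 control libraries have no further change in their labels, and the other 3 add IGF2BP3 overexpression (OE), IGF2BP3 being an RNA-binding protein. How the overexpression was driven, the age and strain of the mice, and whether libraries of 1 group came from separate cultures are not given in the sources used here, so a p-value measures only the spread between these libraries. In bulk RNA, fewer cells of a type and less RNA per cell cannot be told apart.

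Cleavage of most messenger RNAs starts when the cleavage and polyadenylation specificity factor (CPSF) binds a short signal, most often AAUAAA, a little upstream of the cut. The cleavage stimulation factor (CstF) binds U- and GU-rich sequence downstream, cleavage factor I (CFI) binds UGUA motifs further upstream, and the nuclear poly(A)-binding protein then coats the growing tail and controls its length. The abundance of these factors is known to bear on which of several poly(A) sites a gene uses, in dividing epithelium as in other tissues.

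The signals recognised by this machinery in the members' own transcripts are shown because the assay counts reads beside the resulting poly(A) tails. Each line is a stretch of 30 bases at most, 5′ to 3′ on the transcript strand, from the end of an annotated coding transcript in GENCODE M21 (GRCm38), with the signal in capitals. The last 50 bases of the coding transcripts with a complete end were searched on the transcript strand for the signal AATAAA. Where that was absent, the variant ATTAAA was searched, next the variant TATAAA and last the variant AGTAAA.
Cpsf1 (chromosome 15, minus strand): ctacccattttgTATAAAacacaaagaaaa
Cpsf2 (chromosome 12, plus strand): tatttcgctaataAATAAAagatgctgagc
Cpsf4 (chromosome 5, plus strand): tctatgaggttgATTAAAaagcttgttttt
Cpsf6 (chromosome 10, minus strand): tcttgtattgaaAATAAAaacaaagttttg
Cstf1 (chromosome 2, plus strand): tgtgatttctaaAATAAAttttttttatat
Cstf2 (chromosome X, plus strand): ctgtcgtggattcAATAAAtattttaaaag
Cstf3 (chromosome 2, plus strand): tcctttgaaaggAATAAAaggacctcaaaa
Nudt21 (chromosome 8, minus strand): cactgttatttcAATAAAaatatttaaaac
Pabpn1 (chromosome 14, plus strand): aaaaaaaaaagaATTAAAaaaaaaaaagaa

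AATAAA was thus found in 6 of the 10 members, against 66% of 21719 coding genes searched the same way. ATTAAA stood in for it in Cpsf4 and Pabpn1 (12.3% of coding genes) and TATAAA in Cpsf1 (2.3%). None of these letters was in the window of Cpsf3, as for 17.3% of coding genes. The Pabpn1 signal lay in a run of adenines. The counts do not show which annotated end was used in any library.

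The libraries held 2180116 to 2519917 counts, so that 3 counts, taken as the detection floor, corresponded to 1.18 to 1.41 CPM, the count scaled to a common library size (with TMM factors). Floors cover counting error only. Beyond counting error, the spread between libraries was unequal. The biological coefficient of variation estimated by edgeR was 3.15% among controls and 17.1% among OE-labelled libraries. Igf2bp3 had 1, 0 and 0 counts in the controls and 1, 0 and 0 in the libraries labelled OE, so the label had no check, and directions below are those of OE-labelled libraries. Apc, the gene knocked out in both groups, had 164 to 182 counts in controls and 148 to 158 in OE-labelled libraries, which do not separate mutant from intact transcripts (log2 fold change -0.37, edgeR adjusted p = 0.0323). That call was lost in 8 of 18 alternatives, among them the GC offset (-0.18, adjusted p = 0.352) and the removal of any 1 control or of OE-labelled replicate 2 (0.0695 to 0.121). All 8 epithelial markers were counted, with a summed level of 4152 to 4389 CPM in controls and 5403 to 6127 CPM in OE-labelled libraries. The members of that list did not move together. Krt18 ran from 1160 to 1202 CPM in controls and from 2089 to 2443 CPM in OE-labelled libraries. Krt8, Krt19 and Vil1 (68 to 69.1 CPM and 94.8 to 115.8 CPM) were also higher in each OE-labelled library. Cldn7 was lower, at 189.1 to 217.1 CPM and 77.8 to 105.8 CPM. Epcam (430.8 to 433.5 CPM and 429 to 479 CPM) and Cdh1 (1313 to 1484 CPM and 964.4 to 1443 CPM) overlapped. So did Cdx2 (5.07 to 12.7 CPM and 11.8 to 14.6 CPM). The 5 mesenchymal markers summed to at most 2.81 CPM and the 3 endothelial ones to at most 0.461 CPM. The 4 leukocyte markers summed to 13.6 to 20.3 CPM, nearly all of it Cd68, with Cd3e and Lyz2 at 0. The part of these marker differences in the results below was not tested. Library names form 1 series per group, so library series and group cannot be told apart.

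Of the 10 factors, 4 differed between the groups by edgeR's quasi-likelihood test at an adjusted p below 0.05, and they moved in opposite directions. Cpsf1 and Cpsf3 rose in OE-labelled libraries, by 1.54-fold and 1.44-fold, whereas Cpsf2 and Cstf2 fell, to 0.677 and 0.691 of the control level. Across all genes tested 29.2% were called, 16.5% higher and 12.7% lower, so 4 of 10 members is a small count on a background of many changed genes. The median log2 fold change of the members was 0.09, against 0.04 for all genes tested, and it ran from -0.05 (without OE-labelled replicate 3) to 0.17 (without OE-labelled replicate 1) over the alternatives. The CPM of the groups did not overlap for the same 4 members, as for 45.7% of all genes tested.

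**Figure D1:**
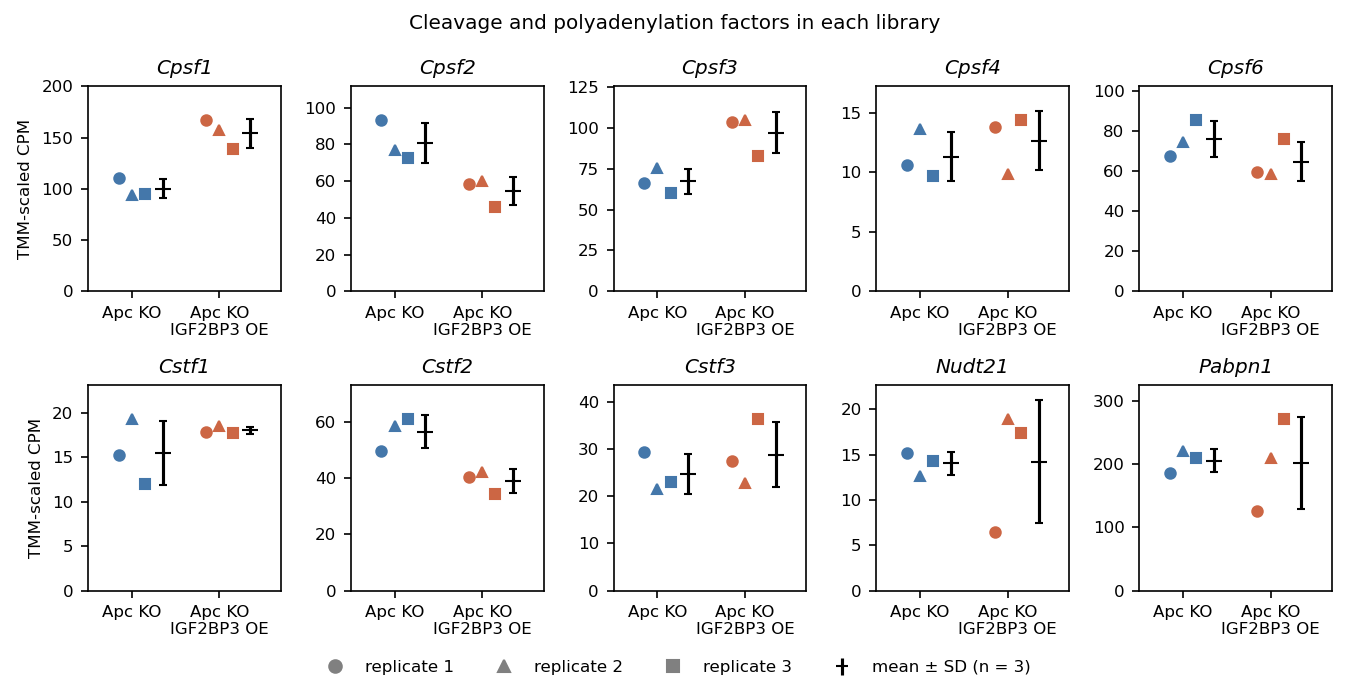
TMM-scaled CPM (vertical axis, starting at 0) of the 10 factors in each library, with the marker shape giving the replicate and bars the mean ± SD of 3 libraries per group. All OE-labelled libraries lie above all controls for Cpsf1 and Cpsf3 and below them for Cpsf2 and Cstf2, and OE-labelled replicate 1 lies low for Nudt21 (6.48 CPM) and Pabpn1 (125.2 CPM).

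Within CPSF, the subunits that recognise the signal were examined first. Cpsf1 (ENSMUSG00000034022, chromosome 15, 76595803 to 76607591, minus strand) encodes the large scaffold of the recognition module. It was counted at 110.6, 94.3 and 95.4 CPM in the controls and at 166.9, 156.9 and 139.1 CPM in OE-labelled replicates 1, 2 and 3. The lowest OE-labelled library lay above the highest control. On the log2 scale the rise was 0.62 with an SE of 0.12 (edgeR adjusted p = 0.00247), and the call held in all 18 processing alternatives, with values from 0.40 to 0.70.

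The 3′ end of Cpsf1 overlaps that of Adck5, which lies on the opposite strand and encodes a putative mitochondrial kinase. Adck5 rose as well, from 38, 40 and 45 counts to 85, 93 and 97 counts (log2 fold change 0.97, SE 0.17, edgeR adjusted p = 0.00137). The shared stretch is short, from base 76595803, where Cpsf1 ends, to base 76595816, where Adck5 ends. Whether the deposited counts used strand is not given in the sources used here, so reads over that stretch cannot be assigned with certainty.

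Cpsf4 (ENSMUSG00000029625, chromosome 5, 145167213 to 145182041, plus strand), whose zinc fingers contact the AAUAAA signal, rested on only 23, 29 and 21 counts in controls and 34, 25 and 34 counts in OE-labelled libraries. The groups overlapped, at 11.3 ± 2.05 CPM and 12.7 ± 2.47 CPM (SD, n = 3). The log2 fold change was 0.16, with a 95% interval from -0.38 to 0.71 (edgeR adjusted p = 0.663), which at this depth leaves room for changes of either sign.

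The nuclease pair of CPSF moved apart. Cpsf3 (ENSMUSG00000054309, chromosome 12, 21285391 to 21315056, plus strand), the endonuclease that makes the cut, was counted at 66.4, 75.5 and 60.4 CPM in controls and at 103.7, 104.6 and 82.4 CPM in OE-labelled libraries. All 3 OE-labelled values lay above the controls, replicate 3 least so. The rise of 0.52 on the log2 scale, with an SE of 0.14, passed at an edgeR adjusted p of 0.0139. The call was lost without control replicate 1 (adjusted p = 0.0645), control replicate 3 (0.0852) or OE-labelled replicate 2 (0.0785).

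Cpsf2 (ENSMUSG00000041781, chromosome 12, 101975988 to 102006424, plus strand) encodes the related subunit that pairs with the endonuclease but has lost catalytic activity. Its level was 93.1, 76.9 and 72.3 CPM in controls and 58.3, 59.8 and 45.7 CPM in OE-labelled libraries. Every OE-labelled library lay below every control, with replicate 3 lowest. On the log2 scale the level fell by 0.56, with an SE of 0.15 and an edgeR adjusted p of 0.0135, a call lost without control replicate 1 (-0.45, adjusted p = 0.0817) and with an offset for GC content given below.

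As a share of the counts of this pair, Cpsf3 took 41.6%, 49.5% and 45.5% in controls and 64%, 63.6% and 64.4% in OE-labelled libraries. Among 3 gene pairs compared in this way (this one, Cstf2 with Cstf2t, and Cpsf6 with Cpsf7), the share of Cpsf3 had a two-sided exact permutation p of 0.1, the smallest that 3 against 3 libraries allow (0.15 adjusted over the 3 pairs). The pairs were set up after the fold changes were known. As Cpsf3 and Cpsf2 had already moved apart without overlap, the p of their share was fixed by that and adds no separate evidence. At its 5′ end Cpsf3 overlaps Itgb1bp1, an integrin-binding adaptor on the opposite strand, which rose from 22, 32 and 34 counts to 60, 49 and 55 counts (log2 fold change 0.71, SE 0.22, edgeR adjusted p = 0.0307). Cpsf2 overlaps the non-coding gene Ndufb1-ps at its 5′ end in the same arrangement, and Ndufb1-ps did not pass the test (log2 fold change 0.03, edgeR adjusted p = 0.945).

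**Figure D2:**
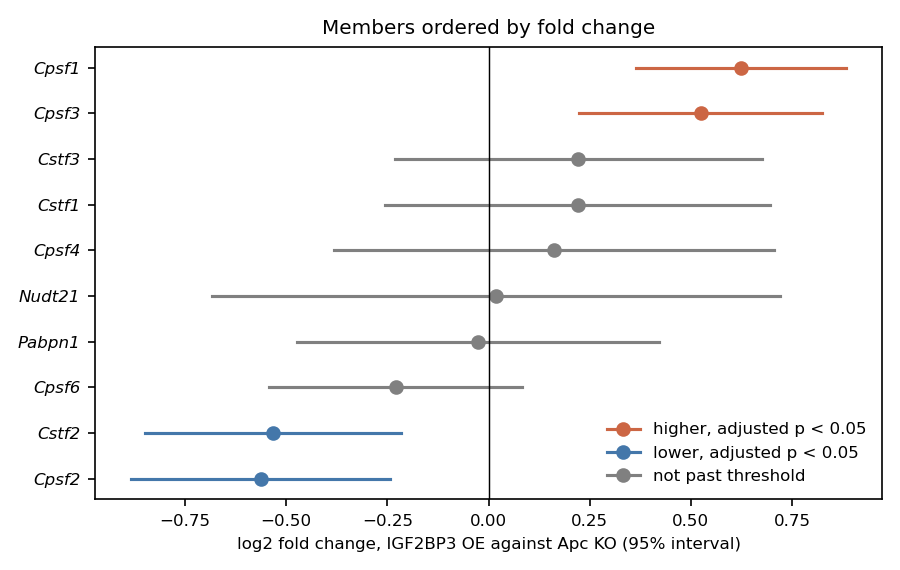
Log2 fold change of each factor in OE-labelled against control libraries (horizontal axis), with the 95% interval of the edgeR fit as a line and genes ordered by fold change. The intervals of Cpsf1 (0.37 to 0.88) and Cpsf3 (0.22 to 0.82) lie above 0 and those of Cstf2 (-0.85 to -0.22) and Cpsf2 (-0.88 to -0.24) below it, while the other 6 cross 0.

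Of the 3 CstF subunits, 1 fell and the other 2 did not pass the test. Cstf2 (ENSMUSG00000031256, chromosome X, 134059187 to 134086819, plus strand), the subunit that binds RNA downstream of the cut, was counted at 49.8, 58.6 and 60.8 CPM in controls and at 40.5, 42.1 and 34.2 CPM in OE-labelled libraries. The groups did not overlap. Cstf2 fell by 0.53 on the log2 scale, with an SE of 0.15 (edgeR adjusted p = 0.0169), and the call was lost without control replicate 2 (adjusted p = 0.0747) or control replicate 3 (0.0868). Nox1, a gut epithelial NADPH oxidase gene annotated over the 3′ end of Cstf2 on the opposite strand, had 0 counts in all 6 libraries.

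Cstf2t, an autosomal paralogue that encodes another form of the same subunit, had 41, 42 and 61 counts in controls and 25, 45 and 45 counts in OE-labelled libraries. Its log2 fold change of -0.51 was close to that of Cstf2 but had an interval from -1.07 to 0.05 (edgeR adjusted p = 0.155). Cstf2 made up 71.9% ± 3.27 of the counts of the 2 paralogues in controls and 71.6% ± 7.92 in OE-labelled libraries (SD, n = 3, two-sided exact permutation p = 1).

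Cstf1 (ENSMUSG00000027498, chromosome 2, 172370681 to 172382448, plus strand), a WD-repeat subunit, and Cstf3 (ENSMUSG00000027176, chromosome 2, 104590523 to 104665429, plus strand), the scaffold that joins the others, were counted at lower depth. Cstf1 had 33, 41 and 26 counts in controls and 44, 47 and 42 counts in OE-labelled libraries. Its OE-labelled CPM values were close together (17.8 to 18.5) and lay inside the control range (12 to 19.2), with a log2 fold change of 0.22 (interval -0.26 to 0.70, edgeR adjusted p = 0.48). Cstf3 had 64, 46 and 50 counts against 68, 58 and 86 counts, and again the groups overlapped. Its log2 fold change was 0.22 (interval -0.23 to 0.67, edgeR adjusted p = 0.453). Tcp11l1 lies over the 3′ end of Cstf3 on the opposite strand. Its counts were 15, 9 and 9 in controls and 9, 12 and 4 in OE-labelled libraries.

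Neither member of CFI passed the test. Nudt21 (ENSMUSG00000031754, chromosome 8, 94015496 to 94037031, minus strand), the small subunit that reads UGUA and favours distal poly(A) sites, was counted at 15.2, 12.7 and 14.3 CPM in controls and at 6.48, 18.9 and 17.3 CPM in OE-labelled libraries. Replicate 1 of the OE-labelled group, at 16 counts, lay below every control and the other two lay above them. The log2 fold change over all 6 libraries was 0.02 (interval -0.68 to 0.72, edgeR adjusted p = 0.973) and without that library 0.31 (edgeR adjusted p = 0.312).

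Cpsf6 (ENSMUSG00000055531, chromosome 10, 117344673 to 117380015, minus strand), a large CFI subunit with an RS-like domain, was counted at 67.3, 74.6 and 85.2 CPM in controls and at 59.6, 58.6 and 75.7 CPM in OE-labelled libraries. Replicate 3 of the OE-labelled group lay within the control range. Cpsf6 had a log2 fold change of -0.23 (interval -0.54 to 0.08, edgeR adjusted p = 0.251). Its paralogue Cpsf7, the alternative large subunit, had 52.1 ± 3.05 CPM in controls and 35.6 ± 8.91 CPM with the OE label (SD, n = 3). Cpsf7 thus fell by 0.55 on the log2 scale, with an SE of 0.18 (edgeR adjusted p = 0.0322), a call that was lost in 5 of 18 alternatives. The share of Cpsf6 among the counts of both was 59.1% ± 3.58 in controls and 64.7% ± 2.37 in OE-labelled libraries (SD, n = 3, two-sided exact permutation p = 0.1; 0.15 adjusted over the 3 pairs). The shares of the groups did not overlap, and this test could not have gone below 0.1. On the opposite strand, Tmem216 overlaps the 3′ end of Cpsf7 and Sdhaf2 its 5′ end. Neither passed the test (log2 fold changes 0.42 and 0.27, edgeR adjusted p = 0.355 and 0.304). Reads over these shared stretches cannot be assigned with certainty.

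Pabpn1 (ENSMUSG00000022194, chromosome 14, 54892500 to 54898169, plus strand), the nuclear poly(A)-binding protein, had 401.5, 470.5 and 456.5 counts in controls and 309, 532 and 640 counts in OE-labelled libraries. In CPM the OE-labelled libraries ran from 125.2 (replicate 1) to 270.6 (replicate 3), on both sides of the control range of 185.3 to 220.5. Its log2 fold change was -0.03 (interval -0.47 to 0.42, edgeR adjusted p = 0.938), and without OE-labelled replicate 1 it was 0.17 (edgeR adjusted p = 0.276).

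Fractional counts were present both in Pabpn1 and in a gene that overlaps it. Gm20521, an annotated read-through of Bcl2l2 into Pabpn1 on the same strand, carries a stretch of 268 bases identical to the 3′ end of Pabpn1. It had 271.5, 300.5 and 323.5 counts in controls and 214.5, 379 and 403 counts in OE-labelled libraries. Pabpn1 took 58.4% to 61.4% of the summed counts in every library, and the sum gave a log2 fold change of -0.03 (interval -0.46 to 0.40, edgeR adjusted p = 0.932). Bcl2l2 itself, an anti-apoptotic gene of the BCL2 family, had 12 ± 1.94 CPM in controls and 7.07 ± 1.39 CPM with the OE label (SD, n = 3) and fell by 0.77 on the log2 scale (edgeR adjusted p = 0.0462). This call lay near the threshold, on 24, 23 and 31 counts in controls and 14.5, 18 and 20 in OE-labelled libraries. It was not followed through the alternatives.

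Base composition moved with the fold changes and is given beside them. Among tested coding genes, the quintile with the lowest GC content (up to 44.6%) had 4.81% of genes higher and 23.5% lower, and the quintile with the highest (from 56%) had 29.1% higher and 4.87% lower. The reference transcripts of the 2 members that fell had 43.8% (Cpsf2) and 45.2% (Cstf2) GC, and those of the 2 that rose 48.6% (Cpsf3) and 56.4% (Cpsf1). With a per-library offset for GC content, Cpsf1 still passed at a log2 fold change of 0.40 (edgeR adjusted p = 0.0327) and Cpsf3 at 0.58 (0.0141). The calls of Cpsf2 (-0.35, edgeR adjusted p = 0.134) and Cstf2 (-0.35, adjusted p = 0.115) were lost. Among members that did not pass, Cpsf6 had the lowest GC content (38.5%) and Pabpn1 the highest (58.3%).

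**Figure D3:**
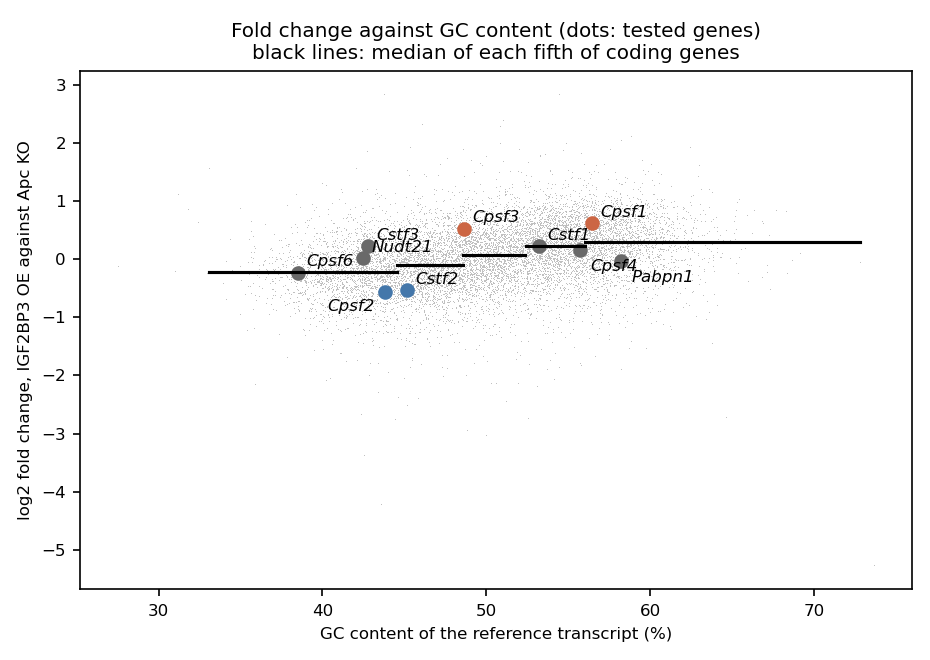
Log2 fold change (vertical axis) against GC content of the reference transcript in percent (horizontal axis) for all tested genes (dots), with the 10 factors named and black lines at the median of each quintile of coding genes. The medians climb from -0.23 to 0.29; Cpsf3 lies above the line of its quintile, Cpsf2 and Cstf2 below theirs.

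The rest of the 3′ end machinery was read from 5 lists of 54 genes in all, of which 53 could be tested. By the same edgeR threshold 5 of the 53 were higher and 8 lower, with a median log2 fold change of -0.16, where all genes tested had 16.5% higher and 12.7% lower and a median of 0.04. Each list below is small and is to be read against those shares. Of 13 further core processing genes, 2 rose, 1 fell (Cpsf7, above) and 10 did not pass, neither direction exceeding its share of all genes. The 2 that rose encode phosphatase subunits of the machinery: Ppp1ca went from 172.3 ± 7.31 CPM to 241 ± 6.35 CPM and Ssu72, which acts on the tail of RNA polymerase II, from 46.8 ± 5.69 to 71.1 ± 9.47 (SD, n = 3). Both passed edgeR's test, at adjusted p = 0.0038 and 0.0096. The call for Ppp1ca was lost with the GC offset (adjusted p = 0.0939), and that for Ssu72 without control replicate 3 (0.0635) or OE-labelled replicate 2 (0.0602). Opposite-strand genes overlap the 3′ ends of Ppp1ca (Rad9a) and Ssu72 (1500002C15Rik), so reads there cannot be assigned with certainty. Wdr33, Fip1l1, Sympk, Papola, Papolg, Pcf11, Clp1 and Rbbp6 were among those that did not pass. Of these Fip1l1 came nearest, at a log2 fold change of -0.29 (edgeR adjusted p = 0.0529), with every OE-labelled library below every control.

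Genes that hold back premature polyadenylation or act in termination gave 5 lower and 0 higher of 13 tested (12.7% and 16.5% of all genes), with a median of -0.35. Snrpc, a protein of the U1 particle that shields early poly(A) sites, had 104, 129 and 87 counts in controls and 60, 50 and 42 counts in OE-labelled libraries. The highest OE-labelled count was thus below the lowest control, and Snrpc fell by 1.26 on the log2 scale with an SE of 0.19 (edgeR adjusted p = 0.000664). The kinase genes Cdk13 (-0.76, SE 0.13, edgeR adjusted p = 0.000964) and Cdk12 (-0.82, SE 0.19, edgeR adjusted p = 0.00729), whose products sustain elongation, both fell. The cyclin gene Ccnk of the same list did not fall with them. Its log2 fold change was 0.34 (edgeR adjusted p = 0.0729, not past the threshold), with every OE-labelled library above every control. Rprd1b, which encodes a polymerase tail-binding protein, fell by 0.43 on the log2 scale (edgeR adjusted p = 0.0362). Without OE-labelled replicate 3 the list gave 7 lower and 1 higher, and without control replicate 3 it gave 3 lower and 0 higher. Cdk12 and Rprd1b were added to those named because the count was small, and Ccnk because it went the other way.

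Among 9 genes of poly(A) tail binding and nuclear surveillance, 2 fell and 0 rose, against 12.7% and 16.5% of all genes. The median log2 fold change of this list was -0.08. Pabpc1, the main cytoplasmic poly(A)-binding protein, had 10464, 10685 and 11339 counts in controls and 4632, 6954 and 6201 counts in OE-labelled libraries. All 3 OE-labelled libraries were far below the controls, at 2411 ± 466 CPM against 5020 ± 201 CPM (SD, n = 3). Pabpc1 fell by 1.06 on the log2 scale, with an SE of 0.13 (edgeR adjusted p = 0.000177), and passed in all 18 alternatives. Zfc3h1, which links poly(A) RNA to the nuclear exosome, had 130.4 ± 2.12 CPM in controls and 91.6 ± 4.78 CPM with the OE label (SD, n = 3) and fell by 0.51 on the log2 scale (edgeR adjusted p = 0.00437, lost with the GC offset at 0.0571).

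The Integrator complex, which cuts small nuclear RNAs with an endonuclease related to that of CPSF, had 2 of 14 genes higher and 0 lower, the former no larger a share than the 16.5% of all genes. Its endonuclease gene Ints11 rose from 17, 21 and 17 counts to 46, 45 and 42 counts (log2 fold change 1.08, SE 0.22, edgeR adjusted p = 0.0037) and passed in all 18 alternatives. Ints4, a scaffold subunit around that endonuclease, rose by 0.52 (SE 0.16, edgeR adjusted p = 0.0312), a call lost in 6 of 18 alternatives. Ints11 overlaps Pusl1 on the opposite strand, so its few counts are uncertain. Of 4 tested genes for the 3′ ends of replication-dependent histone messages, Lsm10, which belongs to the U7 particle, had 21.6 ± 1.84 CPM in controls and 31.3 ± 1.82 CPM with the OE label (SD, n = 3). Lsm10 rose by 0.53 on the log2 scale (edgeR adjusted p = 0.0309), a call lost in 9 of 18 alternatives.

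**Figure D4:**
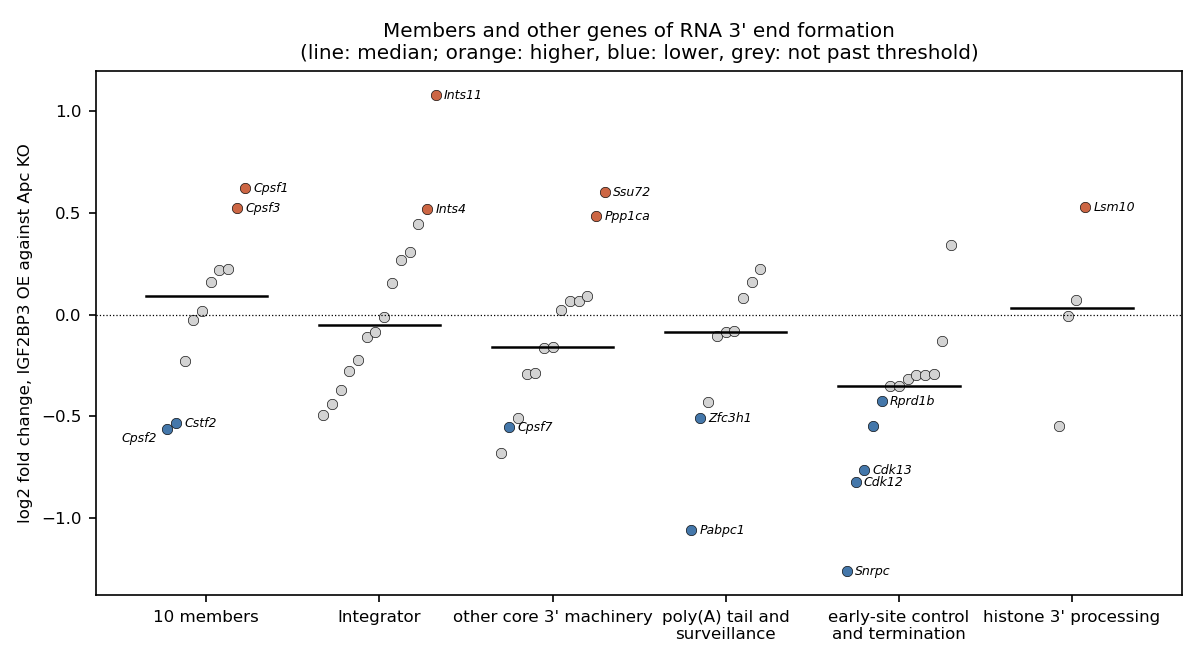
Log2 fold change in OE-labelled against control libraries (vertical axis) of each tested gene, by list (horizontal axis), with the list's median as a line and genes past the edgeR threshold named, except 1. The 10 members spread from -0.56 to 0.62 around a median of 0.09, and the list of early-site control and termination genes has its median at -0.35.

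**Figure D5:**
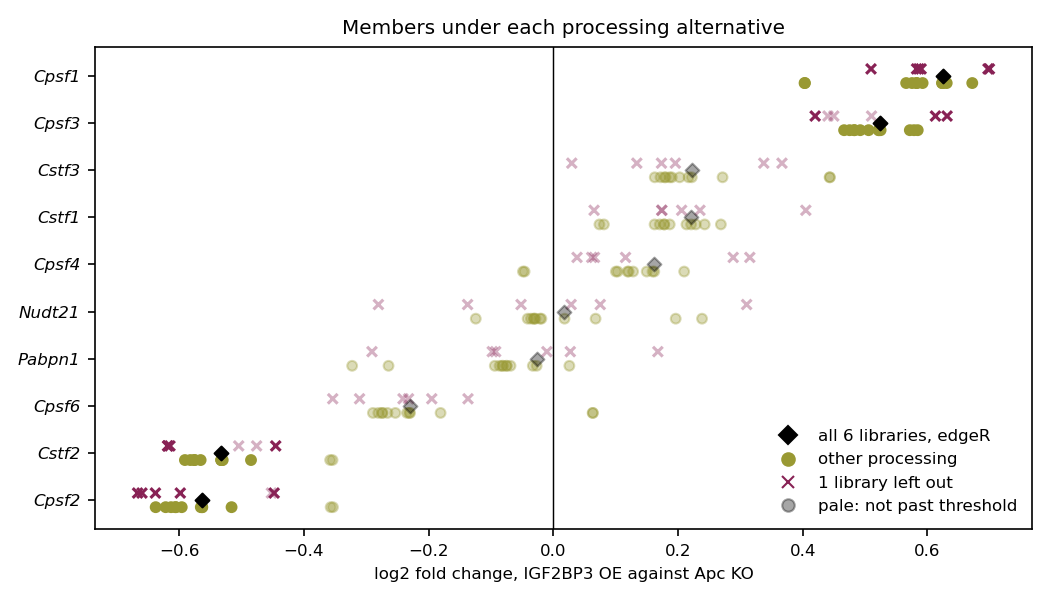
Log2 fold change of each factor (horizontal axis) with all 6 libraries, under other processing, and with 1 library left out, pale marks not passing the threshold. Cpsf1 passes throughout, Cpsf2, Cpsf3 and Cstf2 keep their sign but not always the call, and the marks of Nudt21 run from -0.28 to 0.31.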

How the data were processed

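Groups and replicate numbers came from the sample titles, and table columns were matched through the library names. The authors deposited unnormalized estimated counts per Ensembl gene. Libraries were made with a 3′ forward kit, per the labels' protocols, so counts do not scale with transcript length. STAR, HTSeq and GRCm38 are named in the submitters' processing notes, without roles. The estimated counts were rounded, whereas whole counts had been assumed. GENCODE M21 held 99.5% of the identifiers.

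OE-labelled libraries were compared with controls in edgeR 4.0.16 (R 4.3.3; filterByExpr, TMM factors, quasi-likelihood test, no covariates), with Benjamini-Hochberg adjustment over all genes kept. In that test each gene had the same dispersion in both groups, although the controls varied less. Standard errors are the fold change over the square root of F, and CPM are TMM-scaled. The fit was tested on simulated data. The members and gene lists were chosen with earlier results of these data known. Named are all members, the paralogues Cstf2t and Cpsf7, and up to 3 genes with the smallest p per list, of which 1 is not reported here. Overlapping genes, unrounded counts and the Pabpn1 read-through sum were added after the data were seen.

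The alternatives were DESeq2 size factors, library totals, DESeq2 1.42.0, limma-voom (limma 3.58.1) with a variance per group, no count filter, at least 30 counts in 3 libraries, equal depth, removal of mitochondrial genes and CT010467.1, the replicate number as a block, a loess GC offset (span 0.5) with and without the block, unrounded counts, and each library left out. GC content is that of 1 reference transcript per gene.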

Additional observations from a re-analysis of the deposited data

How the results depend on the processing

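With the GC offset, alone or beside the replicate block, 2 members passed, 0 of them lower. Leaving out single libraries gave 2 to 4 members past the threshold (1 to 2 higher, 1 to 2 lower), with 2 without control replicate 1 or 3. The other processing settings left the count at 4. The replicate block alone changed no member's call and gave 3112 genes in all. Deviations of equally numbered libraries correlated at 0.097, 0.018 and 0.069, against a mean of -0.031 for unequal numbers. Libraries numbered 1 and 3 correlated best with their own number, and those numbered 2 did not. As the correlations were small, the numbers were not taken to pair the samples. For the 22 genes of the naming rule the alternatives gave 395 values, of which 339 had the reported direction and call, 38 missed the threshold and 18, in members not called, changed sign.

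Across all genes, leaving out single libraries gave 1748 to 3532 calls (1033 to 1959 higher, 715 to 1731 lower), against 3118, 1765 and 1353. The count was 1748 to 1893 without a control, whichever of the 3 it was, and 2299 without OE-labelled replicate 2. DESeq2 gave 1059 higher. The other genes of 3′ end formation gave 8 calls without control replicate 3 and 20 without OE-labelled replicate 3 (over single libraries 2 to 6 higher and 5 to 14 lower), and 3 higher with DESeq2, with the GC offset and with block and offset together. By list, leaving out single libraries gave 1 to 4 Integrator genes, 1 to 5 core genes, 3 to 8 early-site control and termination genes (0 to 1 higher, 3 to 7 lower) and 0 to 1 histone genes. DESeq2 gave 1 Integrator gene, and library totals gave 1 higher early-site control and termination gene. The histone list gave 0 with DESeq2, without a count filter, and under both GC settings, and the poly(A) tail list gave 1 under both GC settings.

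Sign changes were found in 4 members. With the GC offset Cpsf4 became -0.046 and Cpsf6 0.063, and with the block added -0.049 and 0.064. Nudt21 became -0.029 with DESeq2 size factors, -0.031 with the DESeq2 test, -0.019 at equal depth, -0.021 without a filter, -0.12 with limma-voom, -0.041 without mitochondrial genes and CT010467.1, -0.036 with the stricter filter and -0.031 with the replicate block. Without single libraries Nudt21 ran from -0.28 to 0.31 and Pabpn1 from -0.29 to 0.17. Pabpn1 was at 0.026 with library totals. Cpsf4 was not tested under the stricter filter. The cause was not tested.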

Other observations

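The surroundings of Cpsf1 on chromosome 15 were looked at after the rise of its overlapping neighbour Adck5 was seen. Of 38 tested genes within 500 kb of Cpsf1, 18 (47.4%) were called higher and 0 called lower by the edgeR threshold, against 16.5% and 12.7% of all genes tested, and their median log2 fold change was 0.61. Chosen after their values were seen, they included Bop1 (1.27), a ribosome biogenesis gene, Slc52a2 (1.29), a riboflavin transporter gene, Gpaa1 (0.79), a GPI transamidase gene, Exosc4 (0.69), a subunit of the RNA exosome, and Maf1 (0.73), a repressor of RNA polymerase III. Hsf1 (-0.16) and Plec (-0.02), in the same window, did not pass. The median GC content there was 57.5%, within the range of the quintile of coding genes richest in GC, of which 29.1% were higher. Neighbouring genes are not independent, and the part of base composition in this pattern was not tested.

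Fewer genes were tested around the other 9 members. Within 500 kb of Pabpn1, 6 of 22 tested genes were higher and 2 lower. Around Nudt21 4 of 8 were higher and 0 lower, and around Cpsf2 0 of 7 were higher and 2 lower. Around Cpsf3 3 of 7 were higher and 0 lower, with a median log2 fold change of -0.13. Around Cpsf4 2 of 10 were higher and 1 lower, around Cpsf6 0 of 9 and 3, and around Cstf3 0 of 4 and 1. Around Cstf1 and around Cstf2, 0 of 3 were higher and 0 lower. These small counts stand beside 16.5% higher and 12.7% lower among all genes tested.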
